A study of Mus musculus with 8 samples.

Results

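The Cdc25 phosphatases (Cdc25a, Cdc25b and Cdc25c) and the Wee1 family kinases (Wee1 and Pkmyt1) were followed in mouse fibroblasts sorted as G1 or as G0. A probe set was taken where the platform annotation gave it 1 gene symbol and that symbol was 1 of these 5 genes. This found 10 of the 45037 probe sets tested, and all 10 are described: 3 for Cdc25a, 1 for Cdc25b and 2 each for Cdc25c, Wee1 and Pkmyt1. No level filter was applied, so none was lost.

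The G1 and G0 cells were NIH3T3, an established mouse embryonic fibroblast line, that carried the reporters mVenus-p27K- and, in a second colour, mCherry-hCdt1(30/120). The p27 mutant reporter accumulates in quiescence, while the Cdt1 fragment is degraded once S phase begins. All cells had been held without serum and then given 10% serum for 5 h before sorting, so both groups share the reporters, the starvation and the serum. G1 cells were mVenus-negative and mCherry-positive, and G0 cells were positive for both; total RNA of each was hybridised to 4 Affymetrix arrays. The labels do not say whether the transduced line was a clone or whether replicates were separate cultures, so p-values reflect the scatter of these samples alone, which may be technical. Values are log2 expression (base taken as 2), centred before deposit so that each probe set has a median of 0. A value of 0 is therefore the middle of the 8 arrays and not an absent transcript, levels cannot be compared between probe sets, and fibroblast markers cannot be checked for presence. In bulk RNA, more cells with a transcript and more transcript per cell cannot be told apart.

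Cyclin-dependent kinases (CDKs) are held inactive by phosphate on a neighbouring threonine and tyrosine in their ATP-binding loop. Wee1 adds phosphate to the tyrosine in the nucleus, and Pkmyt1 (Myt1), bound to internal membranes, adds it to both residues, mainly of Cdk1. The Cdc25 enzymes are dual-specificity phosphatases that remove both phosphates and so switch the kinases on. Cdc25a is best known for Cdk2 at the start of S phase as well as for Cdk1, and Cdc25b and Cdc25c for Cdk1 and cyclin B at entry into mitosis. In cycling fibroblasts the balance of these enzymes times S phase and mitosis, and quiescent cells need neither.

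Of the 5 genes, Cdc25c stood farthest from G0 in the G1 cells, at 3.49-fold, followed by Pkmyt1 at 2.34-fold on its leading probe set. Cdc25b and Cdc25a lay at 1.70-fold each, and Wee1 at 1.17-fold. The leading probe set of a gene was chosen by its suffix and number, without regard to its values. With the labelling batch named in the labels as covariate, none of the 10 probe sets passed an adjusted p of 0.05 in limma over all probe sets tested. In that fit 0.4% of all probe sets passed, 180 of 45037. With p under 0.05 before adjustment, 6 of the 10 were higher in G1 and 0 lower, where 3.71% of all probe sets were higher and 3.59% lower. The difference was positive for 9 of the 10, against 45% of all probe sets, and at least 2-fold for 3, against 7.47%. In 5 of the 10 all G1 arrays lay above all G0 arrays, against 3.16% of all probe sets. Their median log2 difference was 0.77, and that of all probe sets −0.06.

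The arrays themselves disagreed with the labelled batches. The labels put G0 replicate 4 and an array written C1_4, taken as G1 replicate 4, in a batch labelled with kit protocol revision 3, and the others in revision 8. The bacterial poly-A spike-in controls, added to RNA before labelling, had a median over their 24 probe sets of −6.40 on G1 replicate 4 and −7.12 on G0 replicate 3. On the other 6 arrays that median lay between −0.14 and 0.62. The labels were used as given, and whether the numbers of G0 replicates 3 and 4 are exchanged was not tested. Counts of calls in the family and its pathway are therefore also given with a covariate for the presence of the spike-ins (the spike-in batch) and on the 6 arrays that have them. Each batch holds as many G1 as G0 arrays, so the choice of batch alters the standard error of a difference and not its size. With the spike-in batch, 1 of the 10 probe sets passed, against 0.788% of all probe sets, and 7 had a higher G1 mean with an unadjusted p under 0.05, against 5.15%. On the 6 arrays with spike-ins 0 passed in limma, against 0.0977% of all. There 5 had a higher G1 mean with an unadjusted p under 0.05, against 3.96%.

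**Figure D1:**
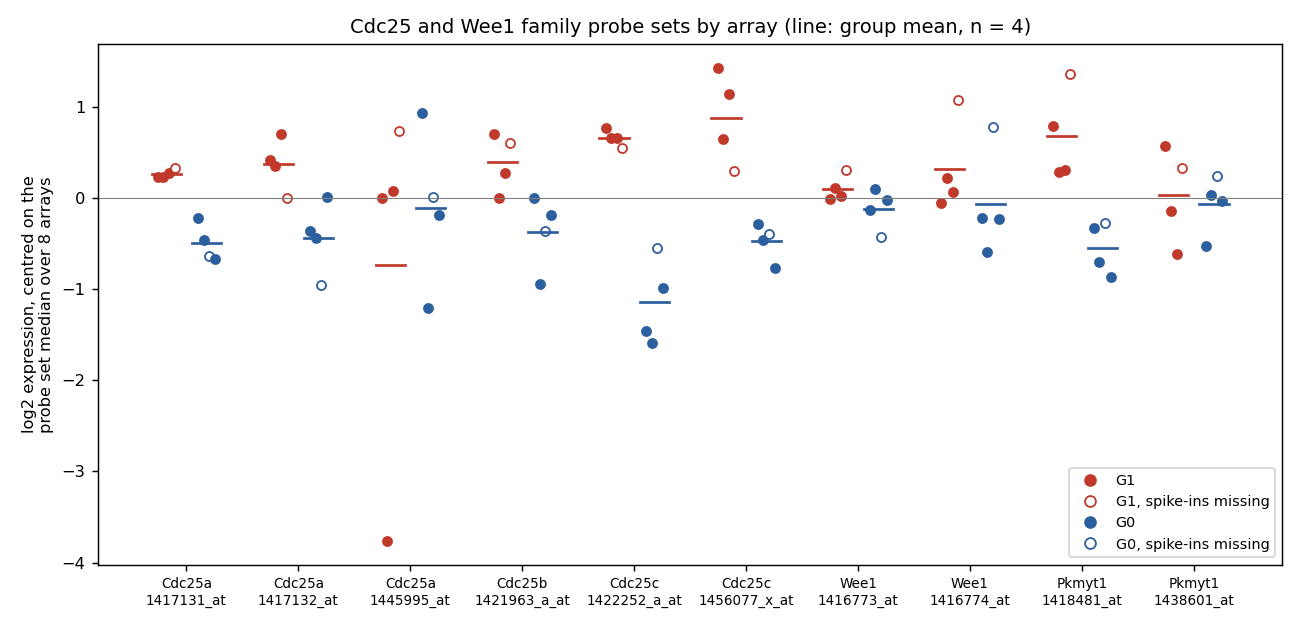
Log2 expression of the 10 probe sets, each centred on its own median, with a point per array, G1 in red and G0 in blue; lines are group means (n = 4) and open points are the arrays without spike-in controls. In 5 of the 10 probe sets all G1 points lie above all G0 points.

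Cdc25c drives Cdk1 and cyclin B into mitosis and is held in the cytoplasm by 14-3-3 proteins for the rest of the cycle. Its leading probe set, 1422252_a_at, read 0.76, 0.65, 0.66 and 0.55 on G1 replicates 1 to 4, against −1.46, −1.59, −0.55 and −0.98 on G0 replicates 1 to 4. The G1 arrays lay close together and wholly above the G0 arrays, which spread over more than 1 log2 unit. The highest G0 array was replicate 3, which lacks the spike-ins. The group means were 0.66 ± 0.09 in G1 and −1.15 ± 0.48 in G0 (SD, n = 4 each). The log2 difference, G1 minus G0, was 1.80 (standard error (SE) 0.33, 95% confidence interval 1.03 to 2.57; limma, adjusted p = 0.115). Of all probe sets, 1.74% had a larger difference.

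With the spike-in batch as covariate Cdc25c rose past the threshold in G1 on this probe set (SE 0.27, limma, adjusted p = 0.0465). It was the only 1 of the 10 to do so in any of the 27 alternative fits. That call did not survive the loss of any array: leaving out each of the 8 in turn from this fit gave adjusted p between 0.0795 and 0.217. Over the alternatives planned, its adjusted p ran from 0.0465 to 0.469. On the 6 arrays with spike-ins the difference was 2.04 (SE 0.30, limma, adjusted p = 0.118), and between the 2 arrays without them 1.10. Within kit revision 8 it was 1.89 and within revision 3 it was 1.54, where 1 array a group allows no test.

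The other Cdc25c probe set, 1456077_x_at, carries a suffix that marks possible cross-hybridisation. It read 1.43, 0.64, 1.14 and 0.29 on G1 replicates 1 to 4, against −0.29, −0.46, −0.40 and −0.77 on G0 replicates 1 to 4. Again the groups did not overlap, but here it was the G1 arrays that scattered, with replicate 4 lowest. The difference was 1.35 (SE 0.24, 95% confidence interval 0.79 to 1.92), a 2.55-fold change (limma, adjusted p = 0.111; adjusted p = 0.101 with the spike-in batch). The 2 Cdc25c probe sets differed in their response by 0.45 log2 units, which was within the spread of the arrays (two-sided exact permutation test, p = 0.257; adjusted p = 0.386 over 6 pairs of probe sets of a gene).

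Cdc25a acts earliest of the 3 phosphatases and is a known target of E2F transcription factors. Its leading probe set, 1417131_at, read 0.23, 0.23, 0.28 and 0.33 on G1 replicates 1 to 4, against −0.23, −0.46, −0.64 and −0.67 on G0 replicates 1 to 4. No array of G1 came within 0.45 log2 units of the highest G0 array, and the G1 arrays had the smallest SD of any group in the 10 probe sets. Means were 0.26 ± 0.05 in G1 and −0.50 ± 0.21 in G0 (SD, n = 4 each). The difference of 0.76 (SE 0.22, 95% confidence interval 0.24 to 1.29) did not pass the test in limma (adjusted p = 0.430; adjusted p = 0.166 with the spike-in batch). It was 0.70 within the arrays with spike-ins and 0.97 between those without.

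A second Cdc25a probe set, 1417132_at, gave nearly the same difference, 0.81 (SE 0.29, 95% confidence interval 0.14 to 1.48; limma, adjusted p = 0.597; adjusted p = 0.142 with the spike-in batch). Its arrays read 0.42, 0.35, 0.70 and −0.003 in G1 replicates 1 to 4, against −0.37, −0.44, −0.96 and 0.003 in G0 replicates 1 to 4. The groups touched at replicate 4 of each, whose values were almost equal. The third, 1445995_at, scattered too widely to read: it ran from −3.76 to 0.73 in G1 and from −1.21 to 0.93 in G0. Its difference was −0.63 with a 95% confidence interval of −3.02 to 1.76 (limma, adjusted p = 0.962; adjusted p = 0.867 with the spike-in batch), and 89.9% of all probe sets scattered less around the fit. Its sign rested on G1 replicate 2, without which the difference was 0.36. The first 2 probe sets differed in response by −0.04 (exact permutation p = 0.914; adjusted p = 0.914 over the 6 pairs). The third differed from each by over 1 log2 unit, within its own spread (exact permutation p = 0.229 for both; adjusted p = 0.386).

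The upstream sequence of Cdc25a is shown because this gene is described in textbooks as an E2F target and its difference was alike on both readable probe sets. The sequence is RefSeq's, build GRCm38.p6, chr9:109875329-109875528 on the + strand, from position −250 to −51 relative to the transcript start of the promoter table, 5′ to 3′. That start lies 61 bases inside the gene as annotated, so the last bases shown are inside the annotated gene. Capitals mark matches to the motifs searched, on either strand.
Cdc25a: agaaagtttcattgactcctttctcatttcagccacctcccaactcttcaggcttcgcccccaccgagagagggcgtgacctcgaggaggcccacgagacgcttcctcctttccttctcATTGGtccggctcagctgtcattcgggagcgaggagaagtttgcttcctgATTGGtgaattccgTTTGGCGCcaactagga
The motifs were 4 forms bound by E2F (TTTGGCGC, TTTCCCGC, TTTGCCGC and TTTCGCGC), the cell cycle homology region TTTGAA, the NF-Y motif CCAAT and the E-box CACGTG. They were searched on both strands of the 300-base window, and no matches overlapped. Cdc25a held TTTGGCGC at positions −67 to −60, a form present in 0.514% of the 32851 promoters searched. Any of the 4 E2F forms was in 2.26% of them. It also held CCAAT on the opposite strand, read as ATTGG, at −131 to −127 and at −81 to −77, and that motif is in 37.4% of promoters. TTTGAA, in 17.9% of promoters, was not in its window. Promoters of 2 of the 5 genes, Cdc25a and Cdc25b, were in the table used. A match is a description of the letters and not evidence of binding.

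Cdc25b starts the activation of Cdk1 at the centrosome in G2. Its only probe set, 1421963_a_at, read 0.70, 0.002, 0.27 and 0.60 on G1 replicates 1 to 4, against −0.002, −0.94, −0.37 and −0.19 on G0 replicates 1 to 4. The groups did not overlap, but the gap between G1 replicate 2 and G0 replicate 1 was only 0.005 log2 units. The difference was 0.77 (SE 0.28, 95% confidence interval 0.11 to 1.42; limma, adjusted p = 0.615; adjusted p = 0.357 with the spike-in batch). On the 6 arrays with spike-ins its interval included 0 (0.70, −0.11 to 1.51). With a single probe set, no second reading of Cdc25b was to be had. The Cdc25b promoter window held the CCAAT motif alone, on the opposite strand at −28 to −24, shown in capitals in the stretch chr2:131186908-131186937 (+ strand, GRCm38.p6, positions −40 to −11). Here the table's start lies 512 bases inside the annotated gene, so this stretch is upstream of that start only.
Cdc25b: accggcgcccccATTGGtggcgtctggcgg

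**Figure D2:**
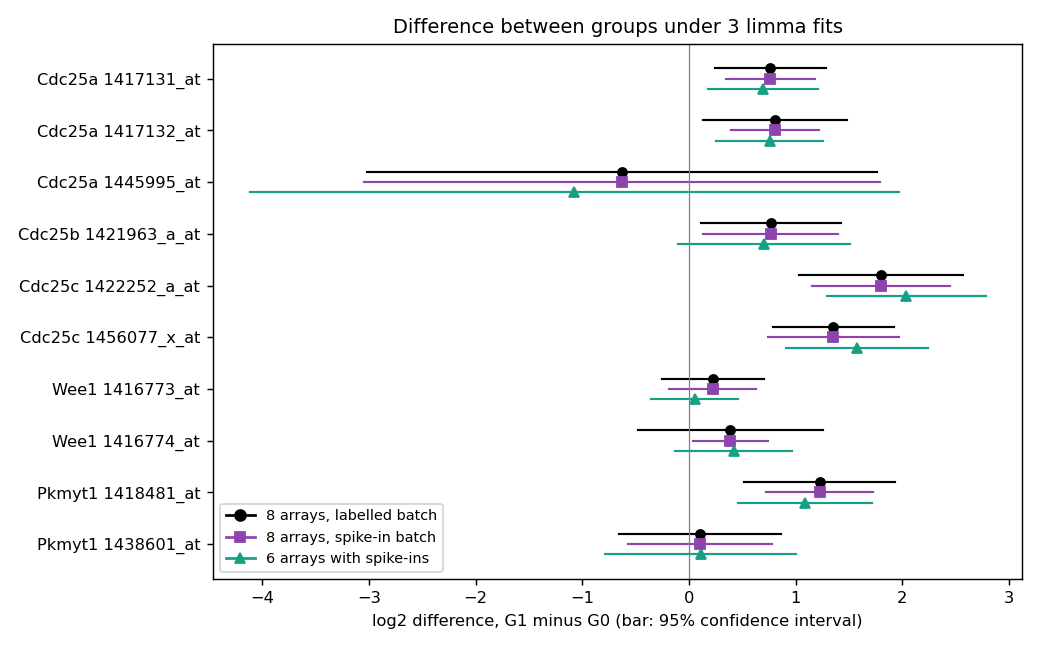
Log2 difference, G1 minus G0, of the 10 probe sets with 95% confidence intervals in limma fits with the labelled batch (circles), with the spike-in batch (squares) and on the 6 arrays with spike-ins (triangles). Both Cdc25c probe sets lie farthest to the right, at 1.80 and 1.35 with the labelled batch, and Cdc25a 1445995_at has the widest interval.

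Pkmyt1, the membrane-bound kinase, opposes Cdc25 and yet lay on the same side as the phosphatases on its leading probe set. Probe set 1418481_at read 0.78, 0.28, 0.30 and 1.35 on G1 replicates 1 to 4, against −0.33, −0.70, −0.28 and −0.87 on G0 replicates 1 to 4. All G1 arrays lay above all G0 arrays, and the highest was G1 replicate 4, which lacks the spike-ins. Means were 0.68 ± 0.51 in G1 and −0.55 ± 0.28 in G0 (SD, n = 4 each). The difference was 1.23 (SE 0.30, 95% confidence interval 0.52 to 1.93), and it did not pass in limma (adjusted p = 0.304; adjusted p = 0.0703 with the spike-in batch). It was 0.89 within kit revision 8 and 2.22 within revision 3, and 1.09 within the arrays with spike-ins and 1.64 between those without.

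The second Pkmyt1 probe set did not show this. Probe set 1438601_at read 0.57, −0.15, −0.61 and 0.32 on G1 replicates 1 to 4, against −0.53, 0.03, 0.24 and −0.03 on G0 replicates 1 to 4. The groups overlapped fully, with a difference of 0.10 (SE 0.32, 95% confidence interval −0.65 to 0.86; limma, adjusted p = 0.983; adjusted p = 0.928 with the spike-in batch). Its sign turned when G1 replicate 1 or G0 replicate 1 was left out (−0.10 and −0.04). The 2 Pkmyt1 probe sets differed in response by 1.12 log2 units, and the difference between them per array did not overlap between groups. This gave the smallest p that 4 arrays against 4 allow (two-sided exact permutation test, p = 0.0286). Adjusted over the 6 pairs it was 0.171, the lowest that a lone pair at that p can reach. Which of them reads the transcript of the cells was not tested.

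Wee1 lay nearest to equal of the 5 genes. Probe set 1416773_at read −0.02, 0.10, 0.02 and 0.30 on G1 replicates 1 to 4, against −0.13, 0.09, −0.43 and −0.03 on G0 replicates 1 to 4. The groups overlapped, and the difference was 0.22 (SE 0.20, 95% confidence interval −0.25 to 0.70; limma, adjusted p = 0.897; adjusted p = 0.690 with the spike-in batch). In fold terms that interval runs from 0.839 to 1.63. On the 6 arrays with spike-ins the difference was 0.06 (95% confidence interval −0.35 to 0.46).

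The other Wee1 probe set, 1416774_at, differed more with the presence of the spike-ins than with the sort. It read −0.06, 0.21, 0.06 and 1.07 on G1 replicates 1 to 4, against −0.23, −0.59, 0.77 and −0.23 on G0 replicates 1 to 4. The highest array of each group was the 1 without spike-ins, 1.00 above the mean of the others in G1 and 1.12 above it in G0. The difference was 0.39 in both 8-array fits, with an SE of 0.37 with the labelled batch and 0.15 with the spike-in batch (limma, adjusted p = 0.903 and 0.399). The part of labelling in these 2 high values was not tested. The 2 Wee1 probe sets differed in response by −0.16 (exact permutation p = 0.714; adjusted p = 0.857 over the 6 pairs).

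**Figure D3:**
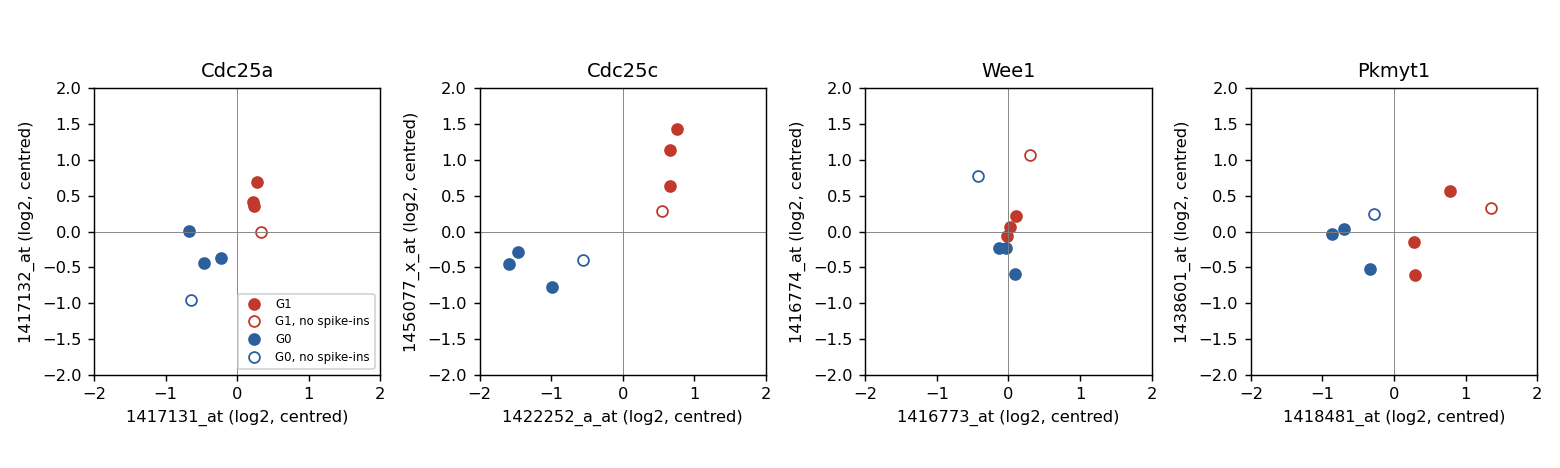
Log2 expression, centred per probe set, of 2 probe sets of the same gene plotted against each other for Cdc25a, Cdc25c, Wee1 and Pkmyt1, with a point per array, G1 in red, G0 in blue and arrays without spike-ins open. G1 and G0 separate on both axes for Cdc25c, on the horizontal axis alone for Pkmyt1 and Cdc25a, and on neither for Wee1, whose 2 open points are highest on the vertical axis.

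The 5 genes were then compared with each other, through the difference between their leading probe sets on each array. In 5 of the 10 pairs the G1 and G0 arrays did not overlap, each at the smallest p that this design allows (two-sided exact permutation test, p = 0.0286), and after adjustment over the 10 pairs none passed (adjusted p = 0.0571 for each of the 5). At least 6 of the 10 pairs would have needed the smallest p to pass. Cdc25c exceeded Wee1 in its response by 1.58 log2 units, Cdc25a by 1.04 and Cdc25b by 1.03. Pkmyt1 exceeded Wee1 by 1.00, and Cdc25a exceeded Wee1 by 0.54. Cdc25c and Pkmyt1 differed by 0.58 (p = 0.171 in the exact test, adjusted p = 0.214), and Cdc25a and Cdc25b by −0.004 (exact p = 1.00, adjusted p = 1.00). On leading probe sets Pkmyt1 (1.23) lay between Cdc25c (1.80) and the pair Cdc25a and Cdc25b (0.76 and 0.77), and Wee1 lay lowest (0.22). On its second probe set Pkmyt1 differed by 0.10, below both Wee1 probe sets. Whether the phosphatases as a set differ from the kinases was not tested. With the mean of all probe sets of a gene, the groups did not overlap in 3 pairs, Cdc25c against Cdc25a, Wee1 and Pkmyt1, with differences of 1.26, 1.27 and 0.91 (exact permutation p = 0.0286, adjusted p = 0.0952 each). Pkmyt1 then exceeded Wee1 by only 0.36 (exact p = 0.143, adjusted p = 0.238).

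Some genes had nearly the same profile over the 8 arrays, by the root mean square difference between leading probe sets. Closest to Cdc25c were Hmgb2, a chromatin protein of the high mobility group, at 0.225 log2 units, 4930579G24Rik at 0.245 and Gins1, a subunit of the GINS complex of the replication fork, at 0.247. Only these 3 genes lay within 0.25 of it. Closest to Pkmyt1 were Herc6 at 0.17, Pold1, the catalytic subunit of DNA polymerase delta, at 0.19 and Haus1, an augmin subunit, at 0.20. Lsm6, Pitpnm2 and Vsig10 were closest to Cdc25a (0.12 to 0.15), and Bicc1, D930003E18Rik and Topbp1, a checkpoint activator, to Cdc25b (0.13 to 0.14). Around Wee1 1242 genes lay within 0.25, so the nearest, Ergic2, Frg1 and Galnt1 (0.08 to 0.09), say little beyond a flat profile.

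Of the kinases that these enzymes act on and their cyclins, Cdk1 and Ccna2 rose in G1. Of the 6 measured, 2 rose in G1 and 4 did not pass, where 0.522% of all genes passed in either direction; the median difference was 1.58, a 3.00-fold change, against −0.06 for all genes. Cdk1, the kinase of mitosis and the main substrate of Cdc25c and Pkmyt1, was 4.30-fold higher (2.11, SE 0.19, limma, adjusted p = 0.0110). Its arrays ran from 0.93 to 1.35 in G1 and from −1.06 to −0.93 in G0. Ccna2, cyclin A2, was 7.77-fold higher (2.96, SE 0.21, limma, adjusted p = 0.00889). Ccnb2, cyclin B2, differed by 1.66 (SE 0.35, limma, adjusted p = 0.196). Neither of the 2 probe sets of Cdk2, the substrate of Cdc25a, passed with the labelled batch. Its leading probe set read the same lowest value, −2.32, on G1 replicates 1 and 2 and G0 replicate 1. That probe set gave 0.08, and its 95% confidence interval ran from −2.87 to 3.02, which allows no comparison with the others. The kinase that adds the activating phosphate did not move with them. Cdk7, Ccnh and Mnat1, which form it, differed by −0.31, 0.004 and −0.29 (limma, adjusted p = 0.832, 0.999 and 0.823). Cdkn3, the other gene listed with them, differed by 0.82 without overlap (SE 0.23, 95% confidence interval 0.29 to 1.34, limma, adjusted p = 0.391). Of these 4 genes 0 passed, against 0.522% of all genes. Before adjustment Cdkn3 alone was higher with p under 0.05 and 0 were lower, against 4.33% and 3.74% of all genes.

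The upstream sequence of Cdk1 is shown beside that of Cdc25a, since Cdk1 is the shared substrate and passed the test. It is chr10:69352913-69353162 on the − strand, GRCm38.p6, positions −250 to −1, 5′ to 3′, with the same motifs in capitals.
Cdk1: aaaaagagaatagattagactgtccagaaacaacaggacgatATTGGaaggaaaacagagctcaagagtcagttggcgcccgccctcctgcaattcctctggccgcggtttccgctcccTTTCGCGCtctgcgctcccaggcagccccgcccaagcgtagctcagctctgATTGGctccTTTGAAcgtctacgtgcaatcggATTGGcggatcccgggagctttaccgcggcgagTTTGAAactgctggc
It held TTTCGCGC at −131 to −124, a form found in 0.323% of promoters. TTTGAA occurred at −71 to −66 and at −15 to −10, and CCAAT, on the opposite strand, at 3 places. Cdk1 and Cdc25a thus each held an E2F form and CCAAT, whereas TTTGAA was in the Cdk1 window and not in that of Cdc25a or Cdc25b.

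Upstream of Cdc25 and Wee1, 3 of 15 measured kinases and binding partners rose, where 0.522% of all genes passed, 12 did not pass, and their median difference was −0.13. The 3 were mitotic kinases, and on the 6 arrays with spike-ins only Plk1 of them passed (limma, adjusted p = 0.0410, against 0.0911 for Melk and 0.0616 for Aurka). Plk1, which activates Cdc25c and marks Wee1 for degradation, was 6.95-fold higher (2.80, SE 0.21, limma, adjusted p = 0.00889). Melk, a kinase reported to bind Cdc25b, was 9.25-fold higher (3.21, SE 0.44, limma, adjusted p = 0.0406), and Aurka, which phosphorylates Cdc25b and activates Plk1, was 3.94-fold higher (1.98, SE 0.25, limma, adjusted p = 0.0277). The 14-3-3 genes, whose proteins hold phosphorylated Cdc25, lay between −0.85 and 0.41 and 0 of the 7 passed. At an unadjusted p under 0.05, 3 of the 15 genes in this list were higher and 0 lower, against 4.33% and 3.74% of all genes.

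None of the 12 checkpoint genes passed in limma, against 0.522% of all genes. Before adjustment 4 were higher and 0 lower with p under 0.05, against 4.33% and 3.74% of all genes, and the median was 0.61. Topbp1 differed by 0.85 (SE 0.22, limma, adjusted p = 0.340), Clspn, the claspin adaptor of Chek1, by 1.49 (SE 0.43, limma, adjusted p = 0.416), Rad1 by 0.83 (limma, adjusted p = 0.529) and Atm by 0.86 (limma, adjusted p = 0.667). The other probe set of Clspn did pass. Chek1, which inhibits Cdc25 by phosphorylation, gave 1.43, with −0.65 and 3.50 as the 95% confidence bounds.

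Among 7 ubiquitin ligase genes none passed, against 0.522% of all genes. At an unadjusted p under 0.05, 1 of the 7 was higher, against 4.33% of all genes. That was Cdc20, an activator of the anaphase-promoting complex, at 1.58 (SE 0.39, limma, adjusted p = 0.304; adjusted p = 0.0441 with the spike-in batch). Cdc20 and Cdca3, an adaptor for Wee1 degradation also called Tome-1, each had 1 of 3 probe sets past the threshold, though not the leading 1. Of 7 genes of Greatwall and the phosphatase PP2A-B55, which removes the marks of Cdk1 from Cdc25 and Wee1, none passed. Here too 1 was higher at an unadjusted p under 0.05, against the same shares of all genes, 0.522% and 4.33%. This was Mastl, the Greatwall kinase, at 2.44, a 5.42-fold difference (SE 0.45, limma, adjusted p = 0.123; adjusted p = 0.0342 with the spike-in batch). Its partners Ensa and Arpp19 differed by −0.23 and 0.41 (limma, adjusted p = 0.929 and 0.762).

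Over the 6 pathway lists, 5 of 51 measured genes passed when the labelled batch was the covariate, 9 when it was the spike-in batch and 3 on the 6 arrays with spike-ins, where 0.522%, 1.01% and 0.17% of all genes passed. Before adjustment 15 were higher and 0 lower with p under 0.05, against 4.33% and 3.74% of all genes. The 5 were Cdk1, Ccna2, Plk1, Melk and Aurka. The count depended on single arrays: leaving out 1 of the 8 in turn gave 0 to 5 with the labelled batch, 2 without G0 replicate 1, 5 without G0 replicate 3 and 0 without any of the other 6.

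**Figure D4:**
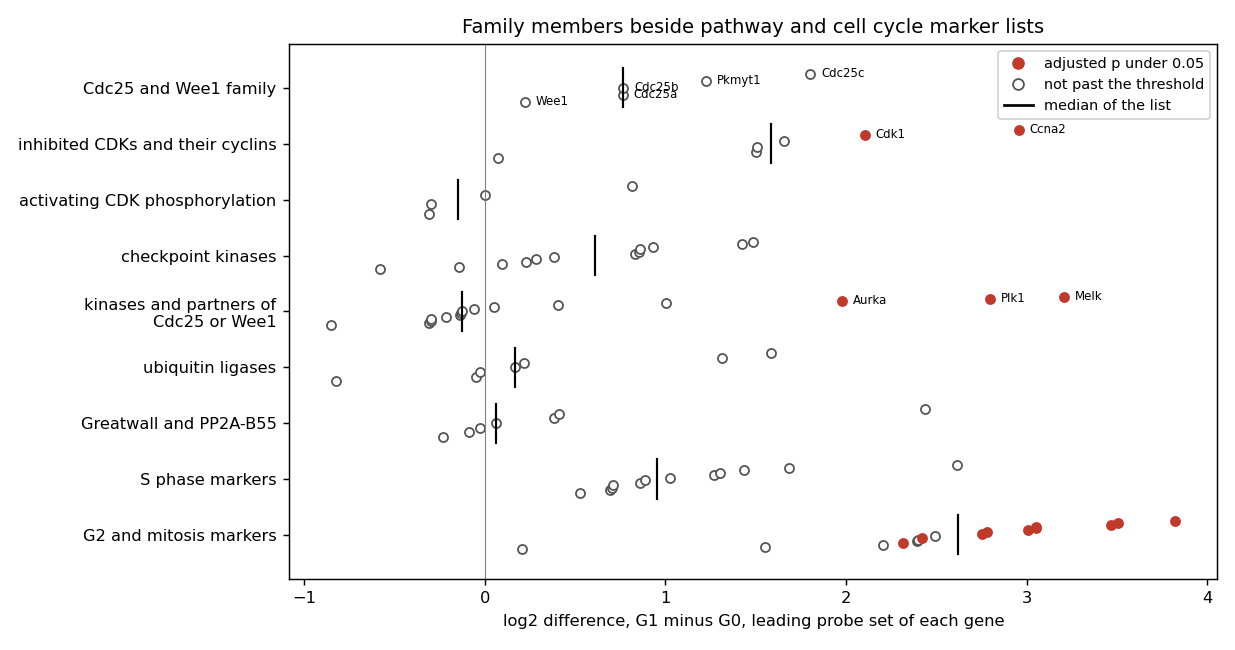
Log2 difference, G1 minus G0, of the leading probe set of each gene in the family, 6 pathway lists and 2 cell cycle marker lists; filled points passed an adjusted p of 0.05 and black bars are list medians. The family's median of 0.77 lies below the G2 and mitosis median of 2.62 and near the S phase median of 0.96.

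Markers of cycling cells were set beside the family. Of 16 G2 and mitosis markers 10 rose in G1 and 6 did not pass, where 0.522% of all genes passed, and their median was 2.62 (6.16-fold). With the spike-in batch 13 passed, against 1.01% of all genes, and on the 6 arrays 7 passed, against 0.17%. Their mean per array lay between 1.02 and 1.70 in G1 and between −1.60 and −1.12 in G0. Of 12 S phase markers 0 passed in limma, although all 12 were positive and 9 had an unadjusted p under 0.05, against 4.33% of all genes higher, with a median of 0.96. With the spike-in batch 4 of them passed, and on the 6 arrays 0 in limma. Their mean per array lay between 0.36 and 0.59 in G1 and between −0.76 and −0.54 in G0. These counts are of leading probe sets. For the S phase marker Rrm2, 2 of 3 probe sets passed with the labelled batch, though not the leading 1. Likewise the mitotic markers Top2a, Bub1b, Ttk and Hmmr each had 1 probe set that passed, though not the leading 1. The Cdc25c difference of 1.80 was therefore smaller than the median of the mitotic list, and those of Cdc25a and Cdc25b, near 0.77, were below the median of the S phase list. The part of cells in S phase, G2 or mitosis in the family's differences was not tested. Fibroblast, leukocyte and epithelial marker lists had medians of −0.12, 0.08 and 0.25, and 0 of their 10, 7 and 6 measured genes passed in limma. Before adjustment 1, 2 and 0 of them had p under 0.05, all lower, against 3.74% of all genes.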

How the data were processed

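Total RNA from 8 sorted NIH3T3 samples, 4 G1 and 4 G0, was measured on Affymetrix mouse arrays. The deposited values are log2 expression; the submitters' processing notes name MAS5. In the table every probe set has a median of 0 over the 8 arrays, so values were centred before deposit; that step and the log base are not given in the sources used here. With 4 arrays a group, their number limits precision. Tests excluded 64 control probe sets. Differences, G1 minus G0, were tested in limma 3.58.1 under R 4.3.3 (lmFit, eBayes with trend, two-sided) over 45037 probe sets, with Benjamini-Hochberg adjustment, a threshold of 0.05 and the labelled batch as covariate. The fit was tested on simulated data. For 34741 probe sets the symbol was taken from RefSeq (GRCm38.p6) by Entrez identifier. A gene was represented by a leading probe set, with the plain suffix _at preferred to lettered ones (a, s, x in turn) and the lowest number deciding. Named pathway genes were those past the threshold, or otherwise up to 4 of a list with the lowest p. Further genes named were Cdk2, Ccnb2, Ccne1, Ccne2, Cdk7, Ccnh, Mnat1, Chek1, Ensa, Arpp19 and genes with another probe set past the threshold. These were chosen after their values were seen. Profile likeness took the 3 nearest genes. The members and lists were chosen with earlier results of these data known. Replicate numbers were not used as pairs. Other normalizations, variance settings, batches and left-out arrays were tried as alternatives.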

Additional observations from a re-analysis of the deposited data

Results flagged for a closer look

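The Cdc25a probe set 1445995_at read −3.76 on G1 replicate 2, far below the other 3 G1 arrays, which lay between −0.01 and 0.73. Its gap to the nearest of them was 0.836 of the group's range, above the 95% critical value of the Dixon test for 4 samples. It was the only such array among 20 groups examined (10 probe sets in G1 and in G0), and chance alone gives about 1 in 20. The other 2 Cdc25a probe sets read 0.23 and 0.35 on the same array.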

How the results depend on the processing

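In 26 of the 27 alternative fits 0 of the 10 family probe sets passed in limma, and 4 to 7 of them had an unadjusted p under 0.05. The exception was the spike-in batch, in which 1 passed, with 355 of all probe sets and 9 pathway genes. On the 6 arrays with spike-ins 44 probe sets and 3 pathway genes passed. In labelling batch 1 alone and with the replicate block 0 probe sets passed in limma, while 3575 and 3219 had an unadjusted p under 0.05. By the labelled numbers, deviations from the group means of same-numbered arrays correlated at 0.07, 0.11, −0.14 and −0.14. With G0 replicates 3 and 4 exchanged, the last 2 would be 0.10 and 0.31, so whether the numbers pair the arrays was not settled. Leaving out each array in turn gave 0 to 122 probe sets and 0 to 5 pathway genes with the labelled batch, and 0 to 237 and 0 to 7 with the spike-in batch (99 without G0 replicate 3, 53 without G1 replicate 2, 0 without G1 replicates 1, 3 or 4), a choice made after seeing the data; in these fits 2750 to 4758 probe sets had an unadjusted p under 0.05. The cause was not tested, beyond the loss of 1 array. For 8 of the 10 probe sets the sign held in all 27. Pkmyt1 1438601_at turned to −0.04 and −0.10 (labelled batch) and −0.021 and −0.12 (spike-in batch) without G0 replicate 1 and G1 replicate 1, and Cdc25a 1445995_at to 0.36 and 0.34 without G1 replicate 2; over all left-out arrays with the labelled batch they ran from −0.10 to 0.31 and from −1.14 to 0.36. Centring hides signal over background, so dim probe sets could not be told from bright ones.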
